A study of Mus musculus with 15 samples.

Results

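The DNA replication genes described here are 34 genes chosen by name for the steps of S phase, out of 78317 genes counted in every library. They comprise origin recognition and licensing genes (Orc1, Orc6, Cdc6, Cdt1), the MCM helicase (Mcm2 to Mcm7) and helicase activation genes (Cdc45, Gins1, Gins2, Gins3, Mcm10). Polymerases and primase are represented by Pola1, Prim1, Pold1 and Pole, and the clamp, its loader and fork proteins by Pcna, Rfc3, Rfc4, Rpa2 and Fen1. Nucleotide supply is represented by Rrm1, Rrm2, Tyms and Dut, G1/S regulation by Ccne1, Ccne2 and E2f1, and chromatin and histone supply by Chaf1b, Slbp and Uhrf1. All 34 were found by identifier, and all 34 passed the filter on low counts, which left 20269 genes. No measured value of these libraries enters the rule that selects them, although they were chosen with earlier results of the data known.

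The libraries came from ventricles of C57BL/6 mouse embryos at E11.5, embryonic day 11.5. They fall into 4 labelled CDS knockout (Atf4fl(CDS)/fl(CDS), loxP sites around exons 2 and 3, polyadenylation signal kept) and 4 labelled CDS control. The other line gave 4 labelled PAS knockout (Atf4fl(PAS)/fl(PAS), loxP sites around the polyadenylation signal, abbreviated PAS) and 3 labelled PAS control. Both lines were crossed to Xmlc2-Cre, which deletes in cardiomyocytes, while other ventricular cells (endocardium, epicardium, mesenchyme, blood) keep the unrecombined gene. The labels call the control genotype only "Control" and do not state whether controls carry the floxed alleles or Cre. The design text calls the samples biological replicates. The labels conflict on how libraries were made: the design text names ventricles, TRIzol and a stranded poly(A) kit, whereas the extraction protocol names cortical neurons, column extraction and ribosomal RNA depletion.

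DNA replication starts when the origin recognition complex, CDC6 and CDT1 load the MCM helicase onto DNA in G1, a step called licensing. Entry into S phase, driven by cyclin E and the E2F factors, converts the loaded MCM ring into an active helicase by adding CDC45 and the GINS complex, and the polymerases then copy both strands behind it on a clamp made of PCNA. Cardiomyocytes of the embryonic ventricle divide, and they leave the cell cycle after birth. ATF4, the product of the deleted gene, is induced by cellular stress and activates transcription of genes for amino acid supply.

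Promoters of replication genes are known for E2F sites, and their letters were searched for as a feature the choice of genes did not use. Windows of 300 bases, from 250 before to 50 after the start of each gene, were available from RefSeq (GRCm38.p6) for 29 of the 34 genes. Ccne2, Gins1, Gins2, Mcm4 and Pole had none. The strings TTTCCCGC, TTTCGCGC, TTTGCCGC and TTTGGCGC, searched on both strands and allowed to overlap each other, occurred in 12 of 29 genes (41.4%) and in 37.5% of their 32 windows, against 2.6% of all 27025 genes with a window and 2.26% of all 32851 windows. Of these genes, 5 had 2 or more matches. The CCAAT box, which shares no full match with those strings, occurred in 19 of 29 genes (65.5%), against 41.1% of all genes. TGATGNAA, the composite element bound by ATF4 with a C/EBP partner, occurred in 1 of 29 genes (3.45%), Fen1, against 4.51% of all genes. These are matches of letters and not measured binding. The 4 windows below show genes of the licensing and helicase steps, chosen after the matches were seen. Capitals mark the E2F letters, which overlap on opposite strands in Mcm5 and Mcm6. Mcm3 lies at chr1:20820263-20820562 (minus strand), Mcm5 at chr8:75109259-75109558 (plus), Mcm6 at chr1:128359656-128359955 (minus) and Orc1 at chr4:108579204-108579503 (plus), all GRCm38.p6 and written 5′ to 3′ on the strand of the gene.
Mcm3: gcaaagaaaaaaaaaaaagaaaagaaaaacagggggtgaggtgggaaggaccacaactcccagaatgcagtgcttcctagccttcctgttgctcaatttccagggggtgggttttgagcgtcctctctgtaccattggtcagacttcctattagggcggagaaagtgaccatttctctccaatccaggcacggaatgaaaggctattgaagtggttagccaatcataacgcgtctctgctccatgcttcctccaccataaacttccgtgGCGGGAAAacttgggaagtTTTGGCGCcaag
Mcm5: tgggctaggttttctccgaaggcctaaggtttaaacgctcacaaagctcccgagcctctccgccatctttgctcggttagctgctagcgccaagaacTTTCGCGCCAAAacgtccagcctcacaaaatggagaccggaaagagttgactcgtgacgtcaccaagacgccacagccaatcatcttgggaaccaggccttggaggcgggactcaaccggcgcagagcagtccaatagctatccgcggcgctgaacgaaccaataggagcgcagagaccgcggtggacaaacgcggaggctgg
Mcm6: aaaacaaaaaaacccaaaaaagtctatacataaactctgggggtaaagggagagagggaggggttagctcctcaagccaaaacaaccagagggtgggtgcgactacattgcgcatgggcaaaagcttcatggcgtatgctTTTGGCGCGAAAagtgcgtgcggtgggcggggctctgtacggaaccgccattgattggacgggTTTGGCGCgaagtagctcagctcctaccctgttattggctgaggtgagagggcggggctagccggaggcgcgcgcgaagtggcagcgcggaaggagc
Orc1: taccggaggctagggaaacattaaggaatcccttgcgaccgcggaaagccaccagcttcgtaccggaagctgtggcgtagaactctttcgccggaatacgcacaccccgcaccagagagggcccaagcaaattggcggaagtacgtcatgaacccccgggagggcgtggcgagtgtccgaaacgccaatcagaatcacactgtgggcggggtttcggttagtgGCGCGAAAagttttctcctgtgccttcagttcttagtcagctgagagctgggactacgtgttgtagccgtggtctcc

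Gene counts summed to between 30376847 and 46472141 per library in the CDS line and to between 22623499 and 29315724 in the PAS line, so every CDS line library was deeper. The 34 genes took between 0.252% and 0.289% of the counts of a library. Atf4 averaged 44.5 ± 3.56 CPM (normalised read count, scaled by library size and composition) in libraries labelled CDS knockout and 114 ± 1.99 CPM in those labelled CDS control (SD, n = 4 each). It averaged 286 ± 18.8 CPM (SD, n = 4) in libraries labelled PAS knockout and 97.1 ± 4.27 CPM (SD, n = 3) in those labelled PAS control, so the targeted gene was higher there, and directions are given by label throughout. The summed cardiomyocyte markers lay between 34998 and 41481 CPM in all libraries. Of the 5 liver markers, Alb was at 0 in 8 libraries and at most 0.0639 CPM, and the others were above 0 in every library. Afp had 0.0281 to 1.63 CPM, Apoa1 0.0431 to 0.355, Trf 13.4 to 25.5 and Ttr 0.263 to 154. The 5 neuronal markers, none of them at 0 in any library, summed to between 29.3 and 47.9 CPM: Gap43 had 17.9 to 23.2 CPM, Map2 3.76 to 7.58, Tubb3 1.63 to 16.3, Stmn2 0.64 to 1.88 and Elavl3 1.1 to 2.08. CDS knockouts 3 and 4 stood apart in Ttr, a liver and choroid plexus transcript, at 104 and 154 CPM. The other CDS line libraries had 11.2 to 35.2 CPM, and the PAS line libraries only 0.263 to 0.743 CPM. Enpp2 split by line as well, at 5.88 to 64.2 CPM in the CDS line and 0.72 to 1.49 CPM in the PAS line.

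Per length, Rrm2 and Pcna were the most abundant of the genes, followed by MCM subunits and Uhrf1. Levels per length are in TPM, the read count divided by the exon length in the files and scaled to the same total in every library. Unlike CPM, TPM is not scaled by composition, so its SDs also include differences in composition between libraries. Among CDS knockouts Mcm2 had 98.5 ± 6.76 TPM but 199 ± 3.9 CPM (SD, n = 4). CDS knockout 3 had 88.6 TPM of Mcm2, against 101 to 104 TPM in the other CDS knockouts. Rrm2, the regulated subunit of ribonucleotide reductase, stood at 186 ± 29.4 TPM in CDS knockouts, 190 ± 6.46 TPM in CDS controls, 212 ± 18.8 TPM in PAS knockouts and 194 ± 18.9 TPM in PAS controls (SD, n = 4, 4, 4 and 3). Pcna, the sliding clamp, stood at 171 ± 18.8 TPM in CDS knockouts, 171 ± 2.35 TPM in CDS controls, 175 ± 3.2 TPM in PAS knockouts and 179 ± 16.1 TPM in PAS controls. Rrm2 and Pcna thus led the ranking in all 4 groups. The MCM subunits, which form a ring with equal numbers of each, had mean levels in CDS controls of 157 TPM for Mcm3, 152 for Mcm4, 150 for Mcm6, 135 for Mcm7, 121 for Mcm5 and 104 for Mcm2. Among CDS control libraries each neighbouring pair from Mcm3 down to Mcm7 overlapped (with Uhrf1 between Mcm6 and Mcm7), whereas Mcm7 lay above Mcm5 and Mcm5 above Mcm2 in every library.

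Licensing and initiation genes were lower per length. In CDS controls Orc6 stood at 65.6 TPM, Cdt1 at 62.6 TPM and Cdc6 at 26.3 TPM. Orc1, the largest subunit of the origin recognition complex, was 33rd of the 34 genes in every group, at 7.72 ± 0.472 TPM in CDS knockouts, 8.04 ± 0.284 TPM in CDS controls, 9.93 ± 1.19 TPM in PAS knockouts and 8.5 ± 0.669 TPM in PAS controls. Among the polymerases, Pold1, the lagging-strand catalytic subunit, had 49.9 TPM in CDS controls, against 24.3 TPM for Pole, the leading-strand one, and 19.4 TPM for Pola1, which extends the RNA primers that Prim1 (32.7 TPM) makes. The G1/S regulators Ccne1 and Ccne2, the E-type cyclins, had 52.3 and 51 TPM and overlapped, and E2f1, which codes for a transcription factor of S-phase genes, had 45.6 TPM. Of the replication-coupled chromatin genes, Uhrf1, which carries DNA methylation onto the new strand, had 146 TPM, while Slbp, which binds the histone mRNA stem-loop, had 34.3 TPM and Chaf1b, a subunit of chromatin assembly factor 1, had 30 TPM. Of 33 neighbouring pairs in the order of CDS control means, 19 overlapped between libraries and 14 did not.

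**Figure D1:**
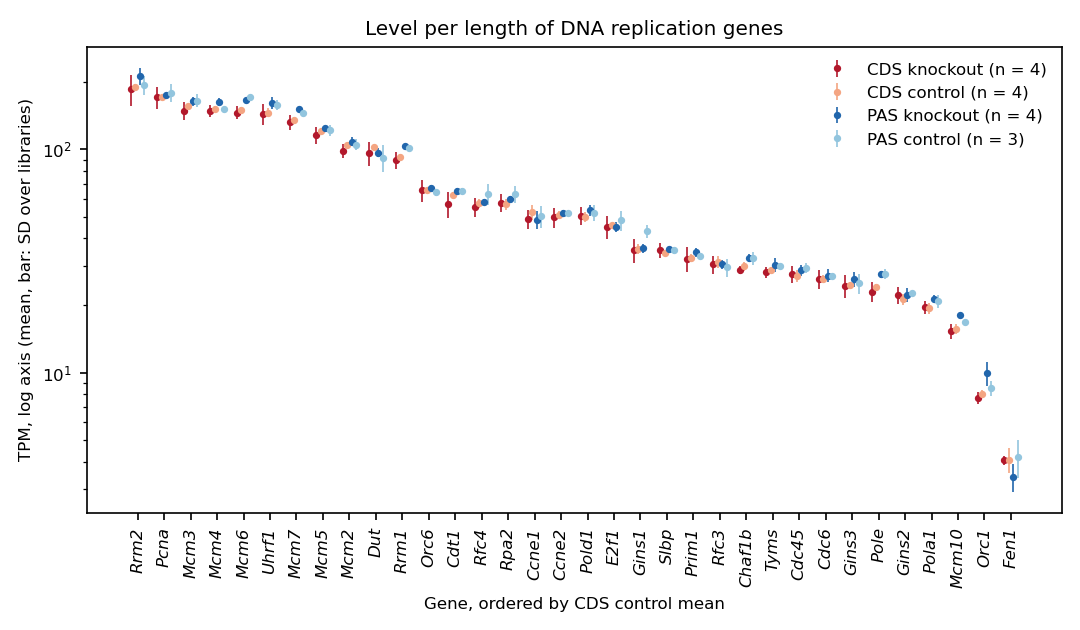
Mean level per length (TPM, log axis) of each of the 34 genes in the 4 groups, ordered by the CDS control mean, with bars for the SD over libraries. Rrm2 is at the upper end and Orc1 and Fen1 at the lower end in every group, and the groups lie close together for nearly all genes.

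The order depends on the length assigned to a gene. With the length of the principal transcript, an alternative chosen after the data were seen, Pcna led at 271 TPM in CDS controls and Rrm1, the large subunit of ribonucleotide reductase, came second at 256 TPM, against 92.8 TPM and rank 11 with all exons. With that length the order of the MCM subunits changed as well: Mcm6 had 241 TPM in CDS controls, Mcm2 214, Mcm7 202, Mcm3 195, Mcm4 152 and Mcm5 143, so Mcm2 stood above Mcm7 and Mcm5. The chromatin genes came closer together, at 173 TPM for Uhrf1, 109 TPM for Slbp and 73.1 TPM for Chaf1b. Orc1 and Fen1 kept the last places at 9.28 and 4.15 TPM. Fen1, the endonuclease that trims Okazaki fragments, is a special case (chromosome 19, 10176496 to 10181533, minus strand, GRCm39). Of its 2422 exon bases, 84.2% lie under exons of Tmem258 and Gm10143, and the counting left such fragments out. Its 4.07 ± 0.531 TPM in CDS controls and its 56 to 134 counts per library therefore come from a small remainder of the gene. Gins2 shares 67.3% of its exon bases with Gse1, Rrm2 35.8% with an unnamed gene and Pcna 20.8% with AV099323. In all, 9 of the 34 genes share over 10%.

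Expression of these genes varied by a few percent between hearts. The median coefficient of variation of CPM within a group was 4.9% in CDS knockouts, 3.42% in CDS controls, 4.12% in PAS knockouts and 6.07% in PAS controls. Over the 12098 tested genes whose mean level fell within the range of the 34, the same medians were 4.73%, 5.14%, 6.1% and 6.64%. The fitted biological coefficient of variation had a median of 5.01% over the 34 genes and 6.04% over those 12098. Slbp and Mcm4 were the steadiest at 4.01% and 4.11%, and Fen1 was the most variable at 11.2%, followed by Rrm2 at 7.97% and Orc1 at 7.78%. Fen1 and Orc1 also had the fewest counts.

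The libraries did not scatter independently across the genes. CDS knockout 3 was the lowest of its group for 26 of 34 genes (76.5%). It was lowest for 34.9% of the 12098 genes in the same range of level and for 30.1% of all tested genes. Over the 34 genes its median log2 difference from the other CDS knockouts was -0.12. Rrm2 had 153, 154, 126 and 166 CPM in CDS knockouts 1 to 4, and the summed level of the 34 genes was 2729, 2740, 2561 and 2816 CPM. The same library carried 32900 CPM of ENSMUSG00000119584, an identifier without a name in GENCODE release 21, and what it encodes was not determined. This identifier had 6340 to 6450 CPM in the other CDS knockouts and 2180 to 3880 CPM in CDS controls, so all 4 CDS knockouts lay above the CDS controls. Named genes held 95.77% of the counts of CDS knockout 3, against 98.78% to 98.84% in the other CDS knockouts. CDS knockout 3 also carried 16.3 CPM of the neuronal gene Tubb3, against 3.96 to 7.44 CPM. Its summed erythroid markers reached 4132 CPM, against 1511 to 2193 CPM in the other CDS knockouts, and its summed cardiomyocyte markers were the lowest of all libraries. CDS knockout 4 was the highest of its group for 21 of 34 genes (61.8%), against 27.2% of all tested genes. Without CDS knockout 3 the CDS line comparison below had 20 positive genes of 34, and 0 were called. The part of these transcripts in the lower replication levels of CDS knockout 3 was not tested. In whole ventricles, fewer dividing cells and less of these mRNAs per cell cannot be told apart.

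**Figure D2:**
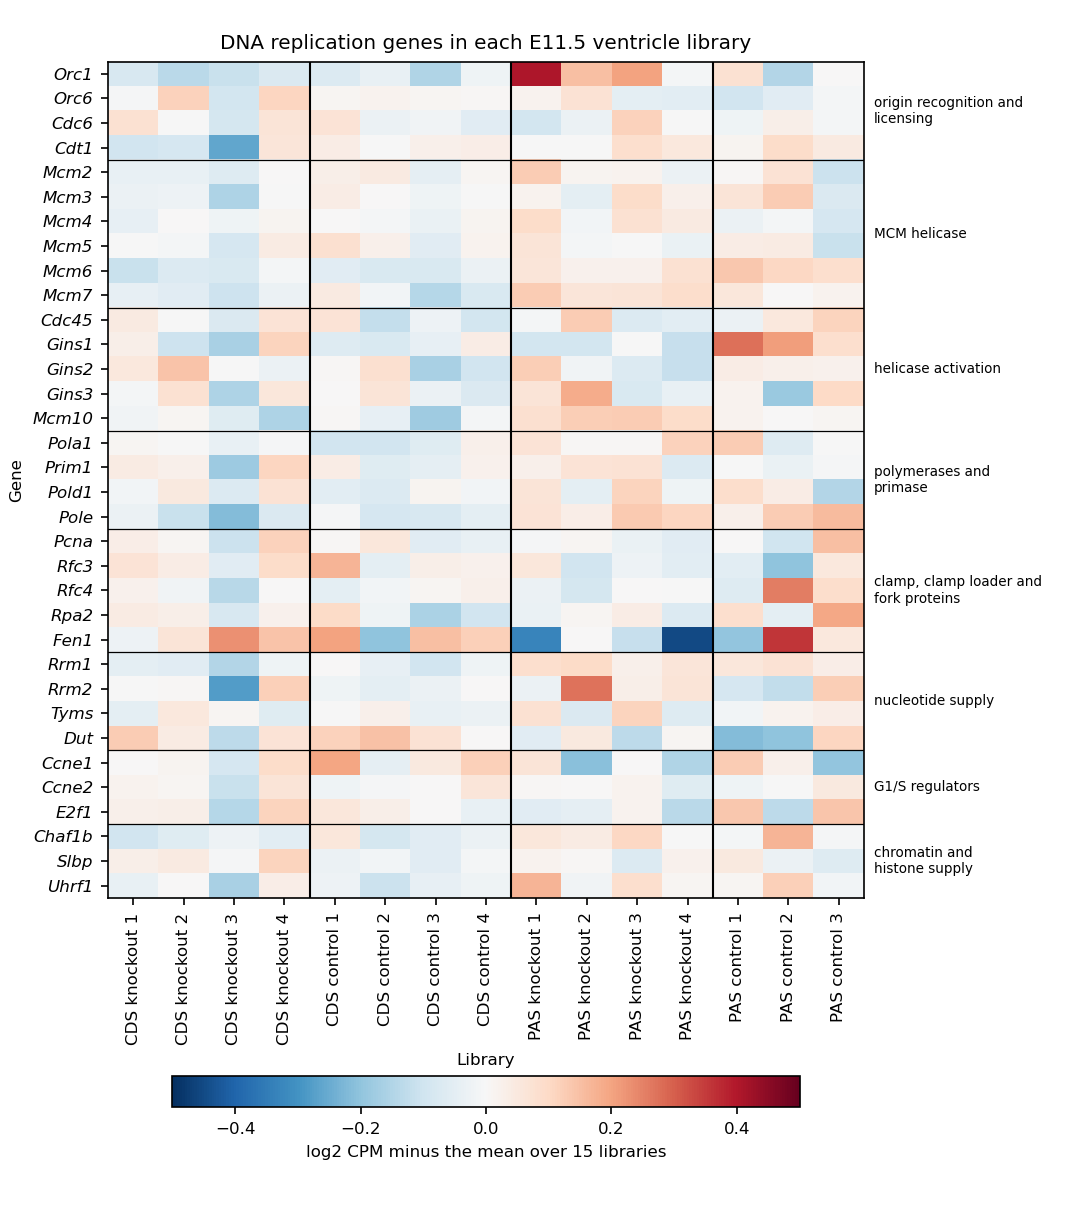
Heat map of log2 CPM minus the mean over 15 libraries, with 1 row per gene grouped by role and 1 column per library. CDS knockout 3 is the bluest column of its group for most rows, being lowest for 26 of 34 genes, and the darkest cells belong to Orc1 and Fen1.

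Deleting the coding exons was compared with control first, to ask whether the replication genes differed. The changes were small and lay on both sides of 0. The median log2 change of the 34 genes was -0.003, beside -0.001 over all tested genes, with 16 positive and 18 negative and a range from -0.11 to 0.09. Summed, the 34 genes stood at 2710 ± 107 CPM in CDS knockouts, against 2730 ± 50.9 CPM in CDS controls (SD, n = 4 each). The number passing edgeR's quasi-likelihood test at an adjusted p under 0.05 (Benjamini-Hochberg, BH) was 0 of 34, where 0.0543% of all genes passed, and DESeq2 and limma-voom called 0 as well. At an unadjusted p under 0.05 there was 1 (Cdt1), beside 2.62% of all genes. Slbp was the 1 gene whose groups did not overlap, at 60.1 to 65.4 CPM in CDS knockouts, against 58.1 to 60.1 CPM in CDS controls (the nearest libraries round to the same value), beside 2.8% of all genes.

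Cdt1 (chromosome 8, 123294754 to 123300293, plus strand, GRCm39), which loads the MCM ring and whose protein is degraded in S phase, showed the largest difference of the CDS line. It had 51.6, 52, 46.1 and 57.5 CPM in CDS knockouts, against 56.5, 55, 56 and 56.4 CPM in CDS controls. Of the knockouts, 3 lay below every control and knockout 4 lay above all of them, so the groups overlapped. The log2 change was -0.11 ± 0.05 (SE, 95% interval -0.21 to -0.01; edgeR quasi-likelihood test, unadjusted p = 0.0315, BH-adjusted p = 1). Without CDS knockout 3 it was -0.06, and without CDS knockout 4 it was -0.16.

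Gins2, a GINS subunit of the active helicase, had 26.6, 28.2, 25.6 and 25.1 CPM in CDS knockouts, against 25.7, 27.1, 22.9 and 24 CPM in CDS controls. The groups overlapped, and the log2 change was 0.09 ± 0.06 (SE). Ccne1, the cyclin E1 gene, had 37.4, 37.7, 35.3 and 39.8 CPM in CDS knockouts, against 42.9, 36.3, 38.7 and 40.6 CPM in CDS controls. These overlapped too, with a log2 change of -0.08 ± 0.07 (SE). The MCM subunits gave log2 changes between -0.06 (Mcm3) and 0.00 (Mcm4), Pcna gave 0.02 ± 0.05, Rrm2 -0.01 ± 0.08, Uhrf1 0.01 ± 0.05 and E2f1 0.00 ± 0.06 (SE).

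The intervals say how large a change these libraries leave room for. In the CDS line the 95% interval of the change lay within 1.2-fold in either direction for 33 of 34 genes, the exception being Fen1, and within 1.1-fold for 17. Among the 12098 genes in the same range of level, 74.6% had an interval within 1.2-fold. Every interval of the 34 lay within 1.5-fold.

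The PAS line asked the same question of a deletion after which Atf4 counts were higher rather than lower. The 34 genes again had a median log2 change near 0, at 0.007 beside -0.001 over all tested genes, with 18 positive and 16 negative and a wider range from -0.30 to 0.21. The number called was 0 of 34 by edgeR's quasi-likelihood test, where 0.00987% of all genes were called, and 0 by DESeq2 and by limma-voom. At an unadjusted p under 0.05 there were 3 (Orc1, Mcm4 and Gins1), or 8.82% of the 34, beside 5.24% of all genes. Groups did not overlap for Mcm7 and Mcm10, which were higher, and for Mcm6 and Gins1, which were lower, beside 4.59% of all genes.

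Gins1, another subunit of the GINS complex (chromosome 2, 150747320 to 150773200, plus strand, GRCm39), had 14.9, 14.9, 15.9 and 14.7 CPM in PAS knockouts, against 19.2, 18.3 and 16.8 CPM in PAS controls. Every PAS knockout lay below every PAS control. CDS knockouts (14.2 to 17.2 CPM) and CDS controls (15.1 to 16.3 CPM) were close to the PAS knockouts, and the PAS controls were the highest group. The log2 change was -0.27 ± 0.08 (SE, n = 4 and 3; 95% interval -0.42 to -0.11; edgeR quasi-likelihood test, unadjusted p = 0.00179, BH-adjusted p = 0.934).

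Orc1 (chromosome 4, 108436620 to 108472030, plus strand, GRCm39) had 11.1, 9.28, 9.61 and 8.3 CPM in PAS knockouts, against 8.8, 7.56 and 8.37 CPM in PAS controls. PAS knockout 1 was the highest of all 15 libraries, and the groups overlapped. The log2 change was 0.21 ± 0.10 (SE; edgeR quasi-likelihood test, BH-adjusted p = 0.939), and without PAS knockout 1 it was 0.13.

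Fen1 had 2.11, 2.67, 2.46 and 1.95 CPM in PAS knockouts, against 2.32, 3.41 and 2.76 CPM in PAS controls, from 56 to 75 counts in the knockouts and 63 to 78 in the controls. The groups overlapped, and PAS control 2 was above all other PAS line libraries. The log2 change was -0.30 ± 0.17 (SE), and without PAS control 2 it was -0.14.

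The remaining genes gave smaller changes, the next in size being Rfc4 of the clamp loader at -0.13 ± 0.07 (SE). Mcm4 averaged 162 ± 5.09 CPM in PAS knockouts and 152 ± 3.97 CPM in PAS controls, and Mcm6 averaged 215 ± 4.13 CPM in PAS knockouts and 224 ± 3.77 CPM in PAS controls (SD, n = 4 and 3). These subunits of the same ring thus gave log2 values of opposite sign, 0.09 ± 0.04 and -0.06 ± 0.04 (SE), neither called. Pcna gave -0.04 ± 0.05, Pole -0.02 ± 0.05, Tyms, the thymidylate synthase gene, 0.00 ± 0.05, Chaf1b 0.00 ± 0.05 and Ccne2 -0.02 ± 0.05 (SE). The 95% interval lay within 1.2-fold for 30 of 34 genes, the exceptions being Orc1, Gins1, Fen1 and Rrm2, beside 67.2% of the 12098 genes in the same range of level. Summed erythroid markers, 9 of 9 negative, ran from 1100 to 2190 CPM in PAS knockouts and from 1185 to 3325 CPM in PAS controls, and their part in these values was not tested.

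**Figure D3:**
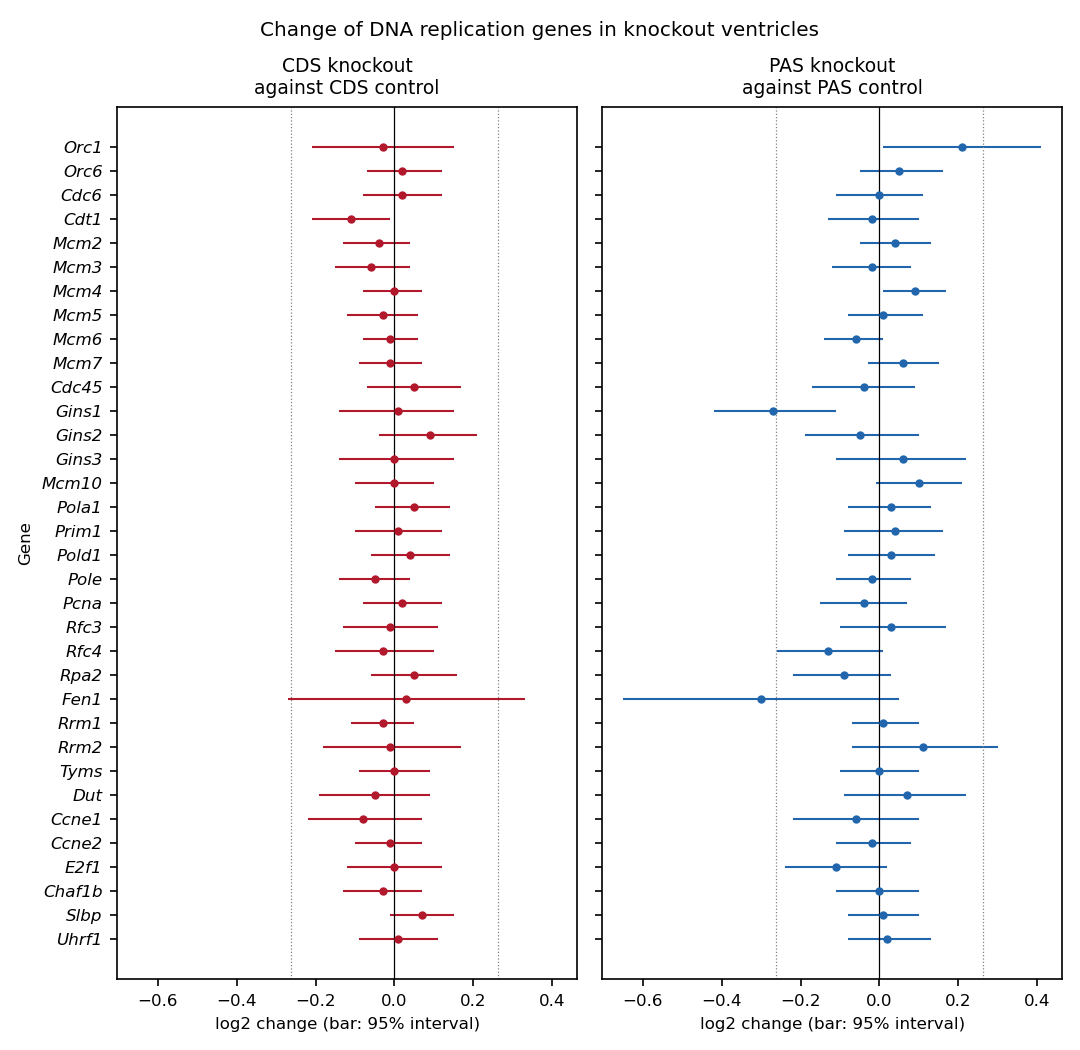
Log2 change of each of the 34 genes in CDS knockouts against CDS controls (left, n = 4 and 4) and in PAS knockouts against PAS controls (right, n = 4 and 3), where points are fitted changes, bars are 95% intervals and dotted lines mark 1.2-fold. On the left 33 of 34 intervals lie between the dotted lines, and on the right those of Orc1, Gins1, Fen1 and Rrm2 cross them.

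Whether the deletions differed in their effect was tested directly, as the PAS change minus the CDS change. The number called was 0 of 34, where 0.00493% of all genes were called by edgeR's quasi-likelihood test, and DESeq2 and limma-voom called 0. The 1 gene with an unadjusted p under 0.05, beside 4.16% of all genes, was Gins1, at -0.27 ± 0.10 on the log2 scale (SE; edgeR quasi-likelihood test, BH-adjusted p = 0.995). Fen1 gave -0.32 ± 0.22 and Orc1 0.24 ± 0.13 (SE), with intervals that include 0. The median over the 34 genes was 0.019, with 20 positive and 14 negative. Without CDS knockout 3 the median was -0.01 with 15 positive, and without both CDS knockouts 3 and 4 it was 0 with 16 positive. The 95% interval of the difference lay within 1.2-fold for 23 genes, beside 49.6% of the 12098 genes in the same range of level.

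The lines were also compared among controls and among knockouts, and 1 replication gene was called, between knockouts. Line, counting run and depth cannot be told apart, since each line was counted in its own run and every CDS line library was deeper. The lines also differed in Ttr, at 11.2 to 154 CPM in the CDS line and 0.263 to 0.743 CPM in the PAS line. The part of that difference in the values below was not tested. PAS controls against CDS controls gave a median log2 difference of 0.028 beside 0.004 over all tested genes, with 24 positive and 10 negative. The number called was 0 of 34 by edgeR and by limma-voom, where edgeR called 0.143% of all genes. Of all 20269 genes, DESeq2 called 101, where edgeR called 29. Of the 34, DESeq2 called 1 (Mcm6, adjusted p = 0.000142). At an unadjusted p under 0.05 there were 6, or 17.6%, beside 9.6% of all genes. Groups did not overlap for 6 genes, beside 9.46% of all genes: Mcm6, Gins1, Pole, Rrm1 and Uhrf1 were higher in PAS controls and Orc6 was lower.

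Mcm6 (chromosome 1, 128259327 to 128287401, minus strand, GRCm39) had 228, 224 and 221 CPM in PAS controls, against 200, 197, 197 and 204 CPM in CDS controls. Every PAS control was above every CDS control, with a log2 difference of 0.17 ± 0.04 (SE; edgeR quasi-likelihood test, BH-adjusted p = 0.0688). Gins1, with the values given above, differed by 0.23 ± 0.07 (SE, adjusted p = 0.284 by the same edgeR test). Dut, which removes dUTP from the nucleotide pool, had 56.6, 57.3 and 71 CPM in PAS controls, against 71.3, 72.8, 69.2 and 65.9 CPM in CDS controls. The groups overlapped through PAS control 3, and the log2 difference was -0.18 ± 0.07 (SE, adjusted p = 0.426 by the same edgeR test).

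Pole, the catalytic subunit of the leading-strand polymerase (chromosome 5, 110434172 to 110485340, plus strand, GRCm39), was the replication gene that passed between knockouts. It had 84.2, 82.2, 87.8 and 86.5 CPM in PAS knockouts, against 78.6, 74.4, 69 and 76.3 CPM in CDS knockouts. Every PAS knockout was above every CDS knockout, and PAS controls (81.7, 87.6 and 89.6 CPM) were likewise above all CDS controls (80, 75.7, 76 and 77.5 CPM). The log2 difference between knockouts was 0.19 ± 0.04 (SE, 95% interval 0.10 to 0.28; edgeR quasi-likelihood test, BH-adjusted p = 0.0284). Within each line the change was near 0, at -0.05 ± 0.04 in CDS knockouts and -0.02 ± 0.05 in PAS knockouts (SE).

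The Pole call was kept under 16 of 24 other settings. These include every setting that left out a control library, which is not part of the comparison and could hardly move the call. Of the knockout libraries left out singly, the call was lost for 5. It was kept only without CDS knockout 1, PAS knockout 1 or PAS knockout 2. The adjusted p was 0.104 without CDS knockout 2, 0.0937 without CDS knockout 3, 0.0599 without CDS knockout 4, 0.0901 without PAS knockout 3, 0.1 without PAS knockout 4 and 0.293 without both CDS knockouts 3 and 4, by the same edgeR test with Benjamini-Hochberg adjustment. The difference itself stayed between 0.15 and 0.22 under every setting tried. Pole has 11160 exon bases, the longest of the 34 genes. Across the 12098 genes in the range of level of the 34, the difference between knockouts had a Spearman correlation of 0.21 with exon length. Knockouts of the PAS and CDS lines also differ in depth and counting run, which cannot be told apart from line. Against controls of the same line, the change had a correlation of 0.03 in CDS knockouts and 0.11 in PAS knockouts. The part of length in the value for Pole was not tested.

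Pole was 1 of 34 genes called (2.94%), where 1.17% of all genes were called. Of all 20269 genes, edgeR called 237, limma-voom 226 and DESeq2 482. Of the 34, limma-voom also called 1, while DESeq2 called 4 (Pole, Mcm6, Mcm7 and Rrm1). At an unadjusted p under 0.05 there were 10 genes (29.4%), beside 13.5% of all genes. Groups did not overlap for 7 genes, all higher in PAS knockouts (Orc1, Mcm6, Mcm7, Mcm10, Pole, Rrm1 and Chaf1b), or 20.6% beside 8.86% of all genes. Mcm7 had 192, 183, 184 and 187 CPM in PAS knockouts, against 171, 169, 164 and 173 CPM in CDS knockouts, a log2 difference of 0.14 ± 0.04 (SE; edgeR quasi-likelihood test, BH-adjusted p = 0.08). Rrm1 had 317, 320, 305 and 312 CPM in PAS knockouts, against 290, 288, 270 and 295 CPM in CDS knockouts. Orc1, at 0.29 ± 0.09, and Fen1, at -0.32 ± 0.15 (SE), had the largest log2 differences in either direction and did not pass (adjusted p = 0.116 and 0.363 by the same edgeR test). Erythroid markers were negative for 9 of 9, at 1100 to 2190 CPM summed in PAS knockouts and 1511 to 4132 CPM in CDS knockouts, with an adjusted p for Pole of 0.0534 when their level was a covariate.

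**Figure D4:**
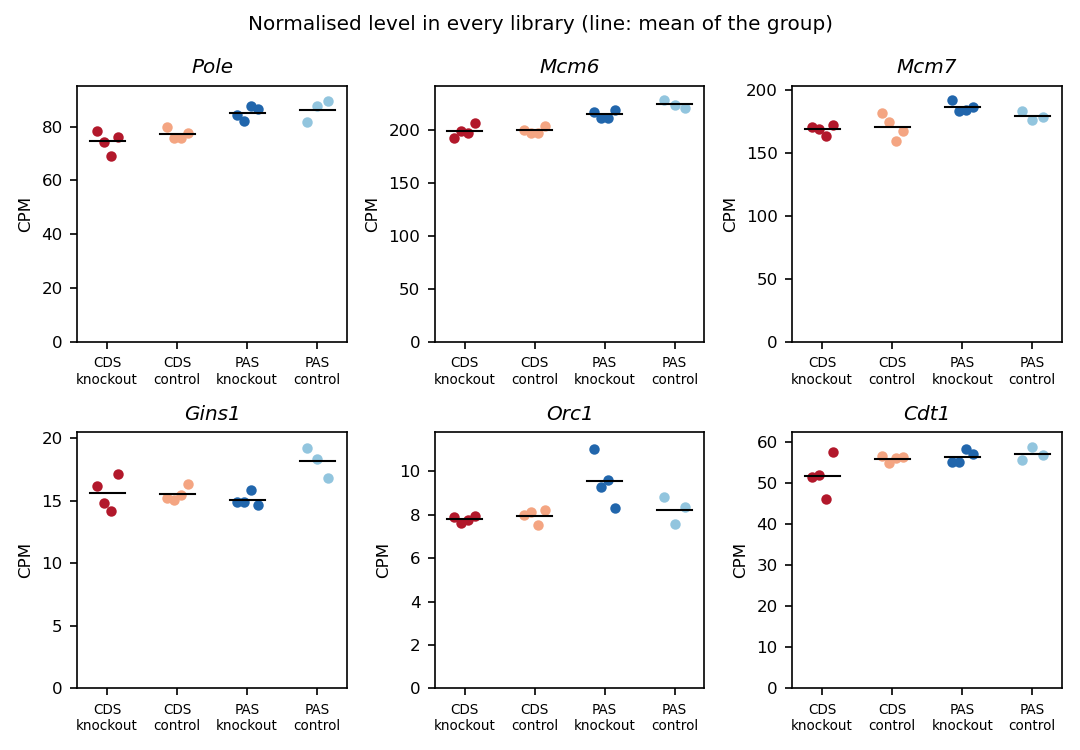
CPM of Pole, Mcm6, Mcm7, Gins1, Orc1 and Cdt1 in every library, with 1 point per library, a line for the mean of a group and axes that start at 0. Pole, Mcm6 and Mcm7 sit higher in PAS knockouts than in CDS knockouts with no overlap, Gins1 is highest in the PAS controls, and CDS knockout 3 is the lowest point of Cdt1.

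The rest of the replication machinery was examined in 7 further lists, with 61 of 62 genes tested. The number called was 0 of 61 by edgeR in CDS knockouts and 0 in PAS knockouts, with 0 by DESeq2 and limma-voom in both. At an unadjusted p under 0.05 there were 0 and 1, beside 2.62% and 5.24% of all genes. Median log2 changes were -0.006 and -0.013. For licensing, Mcmbp gave -0.01 ± 0.04 in CDS knockouts and 0.05 ± 0.04 in PAS knockouts, and Orc3 gave 0.00 ± 0.04 and 0.03 ± 0.04 (SE). Topbp1 and Dbf4, which fire origins, gave -0.01 each in CDS knockouts and -0.03 and 0.05 in PAS knockouts. Among fork genes, Pola2 gave 0.01 and -0.01, Pold2 -0.06 and 0.02, Rpa1 -0.04 and 0.02, Rfc1 -0.05 and -0.03, Lig1, the DNA ligase of Okazaki fragments, -0.04 and 0.03, and Dna2 -0.01 and 0.09, CDS knockouts first in each pair. Dtymk and Tk1, nucleotide kinases, gave 0.02 and 0.01 in CDS knockouts and -0.03 and 0.05 in PAS knockouts. Dnmt1, the maintenance DNA methyltransferase that UHRF1 recruits, gave -0.04 and 0.04, and Rbbp4 0.01 and -0.03. Between the PAS and CDS lines edgeR called 0 of the 61 among controls and 0 among knockouts. At an unadjusted p under 0.05 there were 9 and 17, beside 9.6% and 13.5% of all genes. DESeq2 called 1 and 2, beside 101 and 482 of all 20269 genes.

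Regulators upstream of these genes gave few differences. Of 12 E2F and RB family genes 0 were called in either line by edgeR, DESeq2 or limma-voom, and 0 had an unadjusted p under 0.05 (Tfdp1 -0.02 and -0.01, E2f6 -0.04 and -0.01 on the log2 scale in CDS and PAS knockouts). Of 14 cyclins, kinases and inhibitors of the G1/S step edgeR called 0 in either line. At an unadjusted p under 0.05 there were 2 in CDS knockouts and 2 in PAS knockouts, beside 2.62% and 5.24% of all genes. DESeq2 and limma-voom each called 1 in CDS knockouts, beside 20 and 13 of all 20269 genes, and 0 in PAS knockouts. The most abundant were Cdkn1c at -0.17 ± 0.16 and -0.07 ± 0.18 and Ccnd2, cyclin D2, at -0.12 ± 0.06 and -0.11 ± 0.07 (SE). Cdkn1a, the p21 inhibitor of cyclin E kinase activity, falls outside the rule for named genes and was picked with its values known. Its mean was 26.3 ± 1.63 CPM in CDS knockouts, against 19.9 ± 2.43 CPM in CDS controls (SD, n = 4 each). Its groups did not overlap, as for 2.8% of all genes, and its log2 change was 0.41 ± 0.08 (SE; edgeR quasi-likelihood test, BH-adjusted p = 0.0559). In the PAS line it averaged 25.1 ± 2.54 CPM in PAS knockouts, against 20.3 ± 1.23 CPM in PAS controls (SD, n = 4 and 3), a log2 change of 0.31 ± 0.09 (SE, adjusted p = 0.934 by the same edgeR test). Of 21 tested replication-dependent histone genes, out of 70 by name, 0 were called in either line by edgeR, DESeq2 or limma-voom, with 6 and 3 at an unadjusted p under 0.05 in CDS and PAS knockouts, beside 2.62% and 5.24% of all genes. In CDS knockouts 17 of the 21 were positive with a median log2 change of 0.28, and in PAS knockouts 12 were positive with a median of 0.07. Their summed level was low in every library, at 37.6 to 52.2 CPM. The labels conflict on whether the libraries were made with a poly(A) kit or by ribosomal RNA depletion. The part of the library method in these histone values was not tested.

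Mitosis genes and known ATF4 targets show what the same libraries returned for other programmes. Of 22 mitosis genes 0 were called in CDS knockouts (4 positive and 18 negative; Mki67 -0.06 ± 0.04, Top2a -0.01 ± 0.04) and 0 in PAS knockouts (19 positive and 3 negative; -0.01 ± 0.04 and 0.00 ± 0.05, SE). Between knockouts, 4 of the 22 were called and higher in the PAS line (Cenpf 0.23, Mki67 0.20, Kif20a 0.19 and Cenpe 0.19). By the same edgeR fit 1.17% of all genes were called there. DESeq2 called 6 of the 22, beside 482 of all 20269 genes. At an unadjusted p under 0.05 there were 13, beside 13.5% of all genes. Groups did not overlap for 7, beside 8.86% of all genes. The same limits of line and run hold as for Pole. Of 13 amino acid supply genes that ATF4 is known to drive, 7 were lower in CDS knockouts (Iars, Cars, Yars and Phgdh at -0.33, -0.46, -0.27 and -0.33 among them) and 1, Cars at -0.50, in PAS knockouts, by edgeR's quasi-likelihood test at a Benjamini-Hochberg adjusted p under 0.05, beside 0.0543% and 0.00987% of all genes called. DESeq2 called 11 in CDS knockouts and 5 in PAS knockouts, beside 20 and 7 of all 20269 genes. All 13 were negative in each line, with median log2 changes of -0.28 in CDS knockouts and -0.20 in PAS knockouts. At an unadjusted p under 0.05 there were 12 in CDS knockouts and 11 in PAS knockouts, beside 2.62% and 5.24% of all genes. Groups did not overlap for 11 and 9, beside 2.8% and 4.59% of all genes. The 34 replication genes were tested in the same fit.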

How the data were processed

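The deposited files hold counts, whole numbers of read pairs per gene, produced by the authors' run of featureCounts 2.1.1, per the file headers. Pairs were assigned to exons of GENCODE M37 (GRCm39) without a strand option, pairs over exons of more than 1 gene were left uncounted, and each line had its own counting run. The submitters' processing notes also list fastp, FastQC, HISAT2 2.2.1, STAR 2.7.11b, DESeq2 and the builds GRCm38 and GRCm39. Which aligner made these files is not given in the sources used here. The deposited exon length per gene, in bases, is the authors' other value used, for TPM. Names were matched by identifier to GENCODE release 21, which named 51487 genes holding 98.85% of counts.

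Groups followed the titles and genotype labels. Genes were kept by filterByExpr (minimum count 10, 20269 genes) and libraries scaled by TMM, the factors being 0.986 to 1.01. All 15 libraries were fitted together with a mean per group by edgeR 4.0.16 (robust quasi-likelihood, R 4.3.3), and p-values were adjusted over all genes by the Benjamini-Hochberg method, with calls under 0.05. SEs derive from the F statistic, and 95% intervals from the moderated degrees of freedom. DESeq2 1.42.0 and limma 3.58.1 (voom) were alternatives, beside other scaling, no filter, only the groups compared, a replicate block, removal of haemoglobin and mitochondrial genes, an erythroid covariate and left-out libraries. The procedure was tested on simulated data. Over 21 pairs of replicates the chi-square per degree of freedom was 3.45 to 64, so none were merged. Low genes are limited by counting error.

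Library values are given for genes called in a comparison and for the 3 largest changes of each. From other lists the text names called genes, up to 4, or the 2 most abundant. The genes, lists and tests were chosen with earlier results of these data known.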

Additional observations from a re-analysis of the deposited data

Results flagged for a closer look

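In groups of 4 libraries, 204 sets of values were examined for a library far from the other 3. By Dixon's criterion 10 stood out, close to the 1 in 20 that chance gives. The sets come from the same libraries, so they are not independent of each other. Of the 102 sets for single replication genes 0 stood out, and all 10 came from the other 102 sets. CDS knockout 3 accounted for 5 of the 10. In that library the unnamed gene ENSMUSG00000119584 had 32900 CPM (6340 to 6450 in the other CDS knockouts, 2180 to 3880 in CDS controls). Summed lists were low there: origin firing and checkpoint genes at 655.7 CPM (714.2 to 718.23), other polymerase and primase subunits at 267.52 CPM (281.39 to 284.04), other chromatin assembly genes at 1140.7 CPM (1199.2 to 1208) and the E2F and RB family at 613.6 CPM (650.82 to 657.42).

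Among summed replication genes, origin recognition and licensing reached 151.95 CPM in CDS control 1 (148.06 to 148.61 in the other CDS controls), and the clamp, loader and fork genes summed to 218.14 CPM in PAS knockout 4 (224.54 to 225.47 in the other PAS knockouts). Leukocyte markers summed to 51.889 CPM in CDS control 2 (32.811 to 35.058). Cardiomyocyte markers summed to 39363 CPM in PAS knockout 4 (39831 to 39863), and replication-dependent histone genes to 51.284 CPM in PAS knockout 2 (41.792 to 42.618). The replicated comparisons of the 34 genes within each line called 0 with or without these libraries.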

How the results depend on the processing

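In 71 refits of the knockout comparisons and of their difference under other settings, 0 of the 34 genes were called. The median log2 change stayed between -0.02 and 0.01 in CDS knockouts and between -0.01 and 0.01 in PAS knockouts. It lay between -0.01 and 0.04 for the difference and between -0.01 and 0.03 between knockouts, so in these 4 it lay on either side of 0. Between controls it stayed above 0, from 0.01 to 0.04. Between lines the number called moved: DESeq2 called 1 gene between controls and 4 between knockouts, where edgeR called 0 and 1. Over all 20269 genes DESeq2 also called more, 101 and 482, where edgeR called 29 and 237. Between knockouts, 0 genes were called with the erythroid covariate, with a replicate block (Pole, adjusted p = 0.0555) and without CDS knockouts 3 and 4, and 0 to 1 when single libraries were left out. Same-numbered libraries correlated between -0.54 and 0.36 over 21 pairs, with 5 over 0.1, so the numbers were not taken as pairs. The causes of the lost calls were not tested. Counting error limits Fen1 and Orc1.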
